A study of Mus musculus with 4 samples.

Results

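The 10 genes described here belong to the NRF2 antioxidant pathway. They were followed in mouse bone marrow-derived macrophages after knockdown of the transcription factor IRF2. These members were taken by name from the 48795 genes of the deposited count table: Nfe2l2, which encodes NRF2, Gclc, Gclm, Gsr and Slc7a11 of the glutathione arm, Txnrd1, Srxn1 and Prdx1 of the thioredoxin arm, Hmox1 of the haem arm and Nqo1 of the quinone arm. Each name matched 1 gene, and all 10 had enough reads to be tested. RNA sequencing covered 4 libraries, 2 from macrophages transfected with IRF2 specific siRNAs and 2 from macrophages transfected with control siRNA. Such duplexes lower an mRNA by guiding its cleavage. All cells came from C57BL/6 mice, were differentiated from marrow over 5 days in 10% FBS with 50 ng/ml of M-CSF, and were collected 48 h after transfection with 50 nM siRNA. M-CSF is the growth factor that directs macrophage differentiation. The labels do not say how many IRF2 siRNAs were used, or whether a replicate is a culture or an animal of its own, so the spread behind every p-value here may be technical.

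NRF2 is a basic leucine zipper transcription factor. In unstressed cells its protein is bound by KEAP1, an adaptor of a CUL3 ubiquitin ligase, and degraded, and electrophiles or oxidants acting on KEAP1 let it accumulate. It then pairs with small MAF proteins at antioxidant response elements and raises the mRNAs of enzymes that make and recycle glutathione, reduce thioredoxin and peroxiredoxins, break down haem and reduce quinones, while BACH1 represses some of the same sites, that of Hmox1 above all. Control of NRF2 itself is therefore largely of its protein, which mRNA counts do not measure. In macrophages the pathway is known for handling the oxidants of phagocytosis and the haem and iron of engulfed red cells, and for restraining some inflammatory genes.

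The antioxidant response element is the sequence at which NRF2 acts, so the promoter stretches that hold its core are shown first. RefSeq promoter windows on GRCm38.p6, which run from 250 bases before to 50 bases after a gene's start, were found for 7 of the 10 members, with 9 windows among them because Txnrd1 has 3 starts. The windows of Hmox1, Gsr and Gclc were not used here. Both strands were searched for the core TGACNNNGC. It occurred in windows of 5 of the 7 members, against 14% of all 27025 genes with a window. A match is a description of letters, not of binding. The 4 matches that lie before the start are printed in capitals, on the strand of the gene, with up to 40 bases on each side.
Nfe2l2, chr2:75704855-75704913, minus strand: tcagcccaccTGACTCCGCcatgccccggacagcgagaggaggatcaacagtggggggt
Gclm, chr3:122245383-122245471, plus strand: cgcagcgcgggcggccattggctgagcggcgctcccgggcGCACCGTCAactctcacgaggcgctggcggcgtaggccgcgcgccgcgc
Prdx1, chr4:116685426-116685514, plus strand: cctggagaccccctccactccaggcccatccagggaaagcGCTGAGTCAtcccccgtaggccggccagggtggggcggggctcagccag
Txnrd1, chr10:82859074-82859162, plus strand: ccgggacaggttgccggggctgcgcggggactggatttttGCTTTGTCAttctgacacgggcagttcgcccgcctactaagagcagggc
The core reads forward in Nfe2l2, 240 bases before its start, and on the opposite strand in Gclm, Prdx1 and Txnrd1, where it begins 134, 133 and 92 bases before the start. In GENCODE M21 the Nfe2l2 stretch overlaps an exon of E030042O20Rik on the plus strand. The Txnrd1 stretch lies inside longer Txnrd1 transcripts, outside their exons. Srxn1 had its match 29 bases after the start. Nqo1 and Slc7a11 had none in this window. The looser core TGANNNNGC, which contains the first, occurred in windows of 6 of the 7, all but Nqo1, against 45% of genes.

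Reads counted in genes ranged from 26378584 to 26895100 in the IRF2 siRNA libraries and from 29862296 to 32273565 in the control siRNA libraries. Irf2 itself was at 56.0 and 56.1 CPM with IRF2 siRNA, against 163.9 and 151.6 CPM with control siRNA, where CPM is a count scaled to a common library size and corrected by the trimmed mean of M-values (TMM). Its log2 fold change was −1.49 ± 0.11 (SE), with an adjusted p = 0.00477 in the edgeR quasi-likelihood test. All 8 macrophage markers were present, led by Lyz2, and summed to 24285 to 25547 CPM with IRF2 siRNA and 23690 to 26181 CPM with control siRNA. The sum hides markers that differed in opposite directions, named after their values were seen. Cd14 was at 396.2 and 376.8 CPM with IRF2 siRNA, against 594.7 and 508.0 CPM with control siRNA. Csf1r was at 5245 and 5144 CPM, against 4675 and 4931 CPM. The groups of the other markers overlapped. The control libraries stood further apart than the IRF2 siRNA libraries: the median absolute log2 ratio over tested genes was 0.12 between the IRF2 siRNA libraries and 0.20 between the controls. Control replicate 1 was richer in short transcripts, with a median log2 ratio over control replicate 2 of 0.21 among genes of the shortest exon length and −0.22 among those of the longest, with tested genes in 4 bins of equal size. The IRF2 siRNA libraries showed 0.092 and −0.10 for replicate 1 over replicate 2 in the same bins. Of 13495 genes tested, 0.511% were called higher with IRF2 siRNA and 1.27% lower at an adjusted p under 0.05. In bulk RNA a change in the share of a cell type and a change in RNA per cell cannot be told apart.

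None of the 10 members was called in the edgeR quasi-likelihood test. At an unadjusted p under 0.05, Gsr, Hmox1 and Gclm were higher with IRF2 siRNA and Nqo1 was lower, against 3.61% of all genes higher and 7.33% lower by that rule. Limma-voom also called 0 members, against 0.504% of genes higher, and DESeq2 called Gsr and Hmox1, against 0.985% of genes higher by that test. In CPM, libraries of the groups did not overlap for 6 members that were higher, Gsr, Hmox1, Gclm, Prdx1, Gclc and Txnrd1. They also did not overlap for 1 that was lower, Nqo1. Among all tested genes the shares were 19.0% higher and 19.4% lower. The median log2 fold change of the members was 0.19, against −0.0015 for all tested genes. Of the 10 members 6 were above 0, against 6710 of all 13495 genes.

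**Figure D1:**
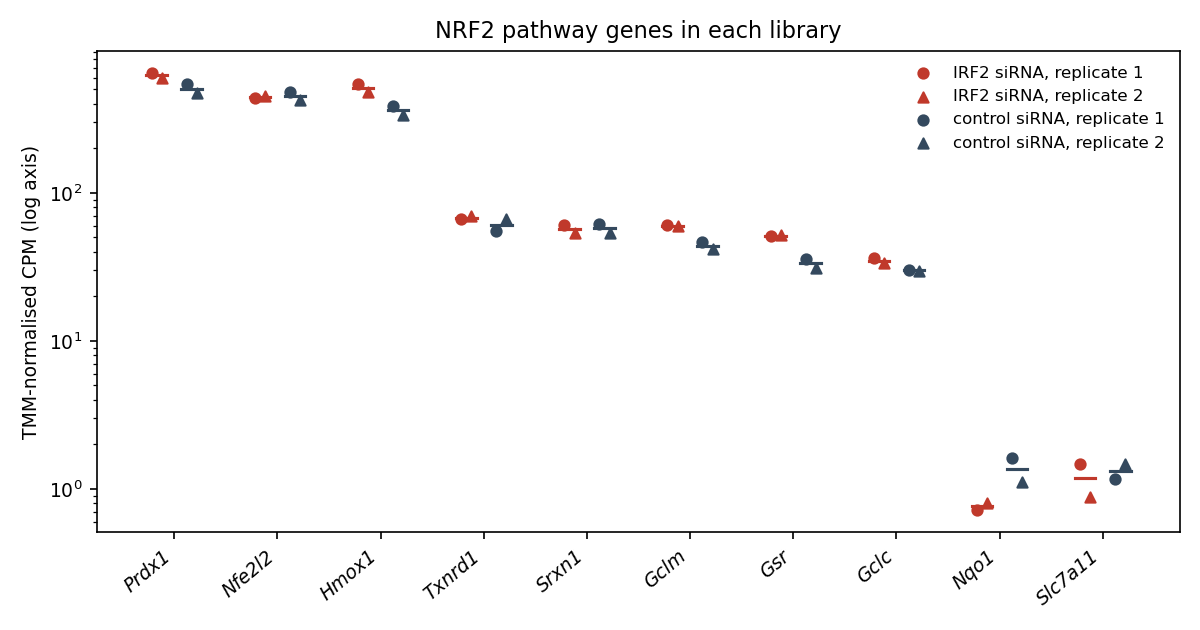
Level of each member in each library, in TMM-normalised CPM on a log axis. IRF2 siRNA is in red on the left and control siRNA in dark blue on the right of each pair, circles are replicate 1, triangles are replicate 2 and lines are group means. Gsr, Hmox1 and Gclm are above both controls in both IRF2 siRNA libraries, and Nqo1 and Slc7a11 lie near 1 CPM in every library.

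Per length of exon, the members spanned a wide range of levels. TPM, which corrects counts for exon length, put Hmox1 first, at 651.6 to 985.1 over the 4 libraries, then Prdx1, at 523.6 to 679.9, and Nfe2l2, at 365.3 to 398.4. The ranges of Hmox1 and Prdx1 overlapped, while that of Nfe2l2 lay below both. Srxn1 followed at 64.1 to 68.2 TPM and Gsr at 38.4 to 62.9 TPM. Txnrd1, Gclc and Gclm came next and overlapped each other, between 21.9 and 32.8 TPM. Nqo1, at 1.47 to 3.08 TPM, and Slc7a11, at 0.21 to 0.36 TPM, were the lowest, so haem oxygenase and peroxiredoxin mRNAs were abundant in these macrophages while those of the quinone reductase and the cystine carrier were scarce.

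Nfe2l2 mRNA, on chromosome 2 at 75675513 to 75704641 of mm10 on the minus strand, was at 435.3 and 451.1 CPM with IRF2 siRNA, against 482.7 and 426.7 CPM with control siRNA. The IRF2 siRNA libraries lay between the controls. Its log2 fold change was −0.04 ± 0.12 (SE), with a 95% interval from −0.32 to 0.25 and an edgeR adjusted p = 0.986. That interval spans from 0.80-fold to 1.19-fold, so a change of the mRNA beyond this range was outside what the fit allows at that confidence, and a smaller one was not detectable with 2 libraries a group.

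In the glutathione arm, the gene with the lowest p of the 10 members was Gsr, glutathione reductase, which returns oxidised glutathione to its reduced form with NADPH. Gsr (chromosome 8, 33652523 to 33698163, plus strand) was at 50.7 and 51.7 CPM with IRF2 siRNA, against 35.7 and 31.3 CPM with control siRNA. Both IRF2 siRNA libraries were above both controls and close to each other. The means were 51.2 ± 0.653 and 33.5 ± 3.13 CPM (SD, n = 2 each), a ratio of 1.53. Gsr had a log2 fold change of 0.61 ± 0.12 (SE), with a 95% interval from 0.32 to 0.91, an unadjusted p = 0.00185 and an edgeR adjusted p = 0.0745. By p it ranked 335 among the 13495 genes tested.

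Gclm and Gclc encode the modifier and catalytic subunits of glutamate-cysteine ligase, which performs the first and rate-limiting step of glutathione synthesis. Gclm (chromosome 3, 122245557 to 122270732, plus strand) was at 60.7 and 59.5 CPM with IRF2 siRNA, against 46.5 and 41.5 CPM with control siRNA. The groups did not overlap, and the log2 fold change was 0.45 ± 0.12 (SE), with a 95% interval from 0.16 to 0.73 and an edgeR adjusted p = 0.165. Exons of Gclm overlap Gm17494, which had 5 to 16 reads per library, and Gm6061, which had 0, and reads that fit more than 1 gene may be lost from its count. Gclc (chromosome 9, 77754535 to 77794485, plus strand) was at 36.2 and 33.6 CPM with IRF2 siRNA, against 30.3 and 29.8 CPM with control siRNA. These groups did not overlap either, and the smaller log2 fold change of 0.22 ± 0.12 (SE) had a 95% interval from −0.07 to 0.50 and an edgeR adjusted p = 0.638. The ratio of Gclm to Gclc in TPM was 1.005 and 1.06 with IRF2 siRNA, against 0.92 and 0.83 with control siRNA. The modifier subunit was thus higher relative to the catalytic one in both IRF2 siRNA libraries, a difference with no test here.

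Slc7a11 encodes xCT, the light chain of the carrier that brings in cystine for glutathione synthesis. It rested on 39 and 24 reads with IRF2 siRNA and 34 and 48 reads with control siRNA, or 1.47 and 0.88 CPM against 1.17 and 1.48 CPM. The groups overlapped and the order of replicates was opposite. Its log2 fold change of −0.18 ± 0.34 (SE) had a 95% interval from −0.98 to 0.62 and an edgeR adjusted p = 0.957, so a change of up to about that size was not detectable at this depth.

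In the thioredoxin arm, Prdx1, peroxiredoxin 1, reduces hydrogen peroxide with electrons from thioredoxin. Prdx1 (chromosome 4, 116685544 to 116700822, plus strand) was at 649.5 and 593.7 CPM with IRF2 siRNA, against 543.1 and 470.6 CPM with control siRNA. The groups did not overlap, but the gap between the nearest libraries was smaller than the difference between replicates in either group. Prdx1 had a log2 fold change of 0.29 ± 0.13 (SE), with a 95% interval from −0.01 to 0.60 and an edgeR adjusted p = 0.473.

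Txnrd1 encodes thioredoxin reductase 1, the selenoenzyme that reduces thioredoxin with NADPH. Its level was 66.6 and 69.3 CPM with IRF2 siRNA, against 55.3 and 66.3 CPM with control siRNA. Control replicate 2 was almost level with the lower IRF2 siRNA library, and the log2 fold change of 0.16 ± 0.13 (SE) had an edgeR adjusted p = 0.825. In TPM the groups of Txnrd1 overlapped, at 29.9 and 32.8 with IRF2 siRNA, against 23.1 and 31.7 with control siRNA. Srxn1 encodes sulfiredoxin, which repairs peroxiredoxins oxidised too far to be recycled by thioredoxin. Srxn1 was at 60.3 and 53.9 CPM with IRF2 siRNA, against 61.7 and 53.5 CPM with control siRNA. In each group replicate 1 was the higher one and the groups covered nearly the same range. The log2 fold change was −0.01 ± 0.13 (SE), with a 95% interval from −0.32 to 0.30 and an edgeR adjusted p = 0.996, and its sign turned in 4 of 12 alternatives, scaling by library size alone among them.

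Hmox1 encodes haem oxygenase 1, which splits haem into biliverdin, carbon monoxide and iron. Hmox1 (chromosome 8, 75093621 to 75100589, plus strand) was at 541.5 and 478.3 CPM with IRF2 siRNA, against 385.8 and 337.4 CPM with control siRNA. Both IRF2 siRNA libraries were above both controls, and replicate 1 was the higher in each group. The means were 509.9 ± 44.7 and 361.6 ± 34.2 CPM (SD, n = 2 each), a ratio of 1.41. The log2 fold change was 0.50 ± 0.13 (SE), with a 95% interval from 0.19 to 0.80, an unadjusted p = 0.00676 and an edgeR adjusted p = 0.155.

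Nqo1, the quinone reductase often used as a readout of NRF2, had a log2 fold change below 0 and rested on few reads. It had 19 and 22 reads with IRF2 siRNA and 47 and 36 reads with control siRNA, which gives 0.717 and 0.807 CPM against 1.62 and 1.11 CPM. The groups did not overlap. Its log2 fold change of −0.82 ± 0.34 (SE) had a 95% interval from −1.62 to −0.02 and an edgeR adjusted p = 0.438.

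**Figure D2:**
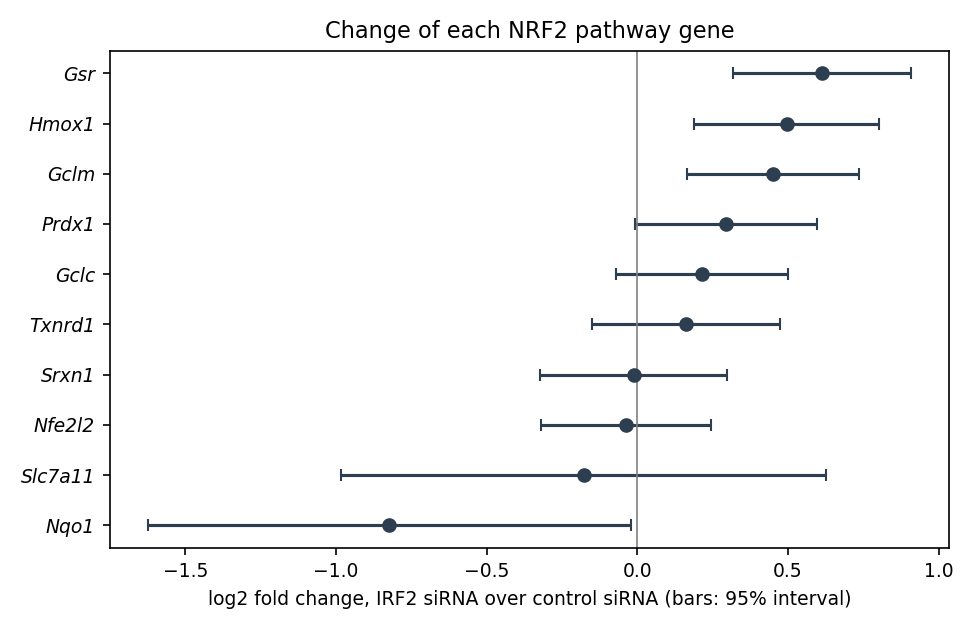
The log2 fold change of each member, IRF2 siRNA over control siRNA, from the edgeR quasi-likelihood fit, with 95% intervals as bars. The intervals of Gsr, Hmox1 and Gclm lie above 0 and that of Nqo1 just below it before adjustment, while that of Nfe2l2 runs from −0.32 to 0.25 around its value of −0.04.

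Genes that govern NRF2 showed no call either in the edgeR test of all 4 libraries. In the list of NRF2 control, 0 of 10 tested were called by the edgeR test or at an unadjusted p under 0.05, and the median log2 fold change was 0.07. The 3 with the lowest p were Mafg, a small MAF partner, with a log2 fold change of 0.20, Keap1, with 0.21, and Bach1, with −0.27, and their edgeR adjusted p-values were 0.646, 0.664 and 0.696. Keap1 was at 66.2 and 59.8 CPM with IRF2 siRNA, against 56.5 and 52.5 CPM with control siRNA. Bach1, the repressor of Hmox1, was at 174.9 and 199.7 CPM with IRF2 siRNA, against 192.7 and 257.9 CPM with control siRNA. Its groups overlapped, and its log2 fold change was −0.46 without control replicate 1 and −0.04 without control replicate 2. Exons of Mafg overlap Sirt7 on the same strand, so shared reads may be lost whether or not counting used strand. Those of Keap1 overlap Gm16754 on the opposite strand, and it is not known whether counting used strand. The values of Mafg and Keap1 are therefore uncertain.

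Among further haem and iron genes, Slc40a1 rose. It encodes ferroportin, the iron exporter of macrophages, which is a known target of both NRF2 and BACH1. It was the 1 gene called of 18 tested, and none fell, against 0.511% and 1.27% of all genes. Slc40a1 was at 181.0 and 172.3 CPM with IRF2 siRNA, against 110.5 and 110.1 CPM with control siRNA. The groups were far apart relative to the spread within them, with means of 176.7 ± 6.14 and 110.3 ± 0.267 CPM (SD, n = 2 each), a ratio of 1.60. Its log2 fold change was 0.68 ± 0.11 (SE), with an edgeR adjusted p = 0.0313. Leaving out IRF2 siRNA replicate 1 or 2 ended the call, at edgeR adjusted p-values of 0.362 and 0.211, as did testing with no filter on low counts, at 0.0917, although the log2 fold change stayed between 0.65 and 0.72 in those fits.

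The rest of the haem and iron list showed no calls in the edgeR test of all 4 libraries. Tfrc, the transferrin receptor, had a log2 fold change of 0.39 (edgeR adjusted p = 0.515). It was 0.65 without control replicate 2 and 0.17 without control replicate 1. The ferritin heavy chain Fth1 was at 13463 and 11962 CPM with IRF2 siRNA, against 15138 and 11474 CPM with control siRNA. The light chain Ftl1 had a log2 fold change of −0.14. Exons of Ftl1 overlap Gm22133 and Gm10252, so its value is uncertain. Blvrb and Blvra, the biliverdin reductases that act after haem oxygenase, had 0.26 and −0.07, at edgeR adjusted p-values of 0.781 and 0.97. The ferritins and reductases, named after their values were seen, handle the iron and biliverdin that haem oxygenase releases, and none passed this test.

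Among further glutathione genes, 0 of 20 tested were called by the edgeR test, with 1 higher and 2 lower at an unadjusted p under 0.05, against 3.61% and 7.33% of all genes, and a median log2 fold change of 0.04. Gpx1, the cytosolic glutathione peroxidase, was the closest to the threshold. It was at 280.9 and 240.9 CPM with IRF2 siRNA, against 537.1 and 414.3 CPM with control siRNA. Both IRF2 siRNA libraries were below both controls, at 0.55 times the control mean. The log2 fold change was −0.87 ± 0.16 (SE), with an edgeR adjusted p = 0.0551. DESeq2 called Gpx1 with an adjusted p = 6.16e-05, among 307 genes called lower by that test. An edgeR fit with the trend of each library with exon length removed also called it lower. That fit was chosen after the data had been seen, and gave −0.80 with an edgeR adjusted p = 0.00525, among 358 genes called lower. In the edgeR fit its log2 fold change was −0.97 and −0.76 without IRF2 siRNA replicate 1 and 2. It was −0.66 and −1.04 without control replicate 1 and 2. Gpx3, a secreted glutathione peroxidase, had −0.52 (edgeR adjusted p = 0.421), and Abcc1, which exports glutathione conjugates, had 0.34 (edgeR adjusted p = 0.431). Without control replicate 2 Gpx3 was at −0.77 and Abcc1 at 0.50, while without control replicate 1 they were at −0.21 and 0.20. The values of Gpx1 and Gsr thus lay on opposite sides of 0 within the same pathway.

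Among further thioredoxin and superoxide genes, 0 of 18 were called by the edgeR test, with 2 higher and 1 lower at an unadjusted p under 0.05, against 3.61% and 7.33% of all genes, and a median of 0.05. The 3 with the lowest p are described. Selenow, a small selenoprotein, was at 16.95 and 14.3 CPM with IRF2 siRNA, against 30.8 and 22.1 CPM with control siRNA. Sod2, the mitochondrial superoxide dismutase, was at 52.6 and 60.0 CPM with IRF2 siRNA, against 41.2 and 38.6 CPM with control siRNA. Prdx5, a peroxiredoxin of mitochondria and peroxisomes, was at 263.3 and 230.3 CPM with IRF2 siRNA, against 188.7 and 135.4 CPM with control siRNA. None of the 3 had overlapping groups, against 19.0% of all genes not overlapping and higher and 19.4% lower, and their log2 fold changes were −0.76 (edgeR adjusted p = 0.142), 0.50 (edgeR adjusted p = 0.143) and 0.61 (edgeR adjusted p = 0.206). DESeq2 called Selenow and Prdx5, with adjusted p-values of 0.0192 and 0.0316, among 307 genes lower and 120 genes higher by that test. In the edgeR fit without control replicate 1 their log2 fold changes were −0.50 and 0.87. Without control replicate 2 they were −0.98 and 0.39. Sod2 was at 0.55 and 0.45 in these edgeR fits, and had an adjusted p = 0.0868 with DESeq2. Exons of Prdx5 overlap Trmt112, so its value is uncertain.

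Among further NADPH and detoxification genes, 0 of 23 were called by the edgeR test, with 1 higher and 1 lower at an unadjusted p under 0.05, against 3.61% and 7.33% of all genes, and a median of 0.0088. G6pdx and Pgd, the pentose phosphate enzymes that make NADPH, were named after their values were seen: G6pdx had a log2 fold change of −0.0096 and Pgd one of −0.10. Marco, a scavenger receptor of macrophages, was at 4.15 and 4.73 CPM with IRF2 siRNA, against 2.69 and 1.44 CPM with control siRNA. Its log2 fold change was 1.12 ± 0.30 (SE), with an edgeR adjusted p = 0.164. In the edgeR fit Marco was at 1.21 and 1.02 without IRF2 siRNA replicate 1 and 2. It was at 1.62 and 0.73 without control replicate 1 and 2. Cd36, another scavenger receptor, had −0.29 (edgeR adjusted p = 0.454), which was −0.375 without control replicate 1 and −0.19 without control replicate 2. Me1, the cytosolic malic enzyme, had 0.40 (edgeR adjusted p = 0.624).

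The last list holds genes of the ATF4 stress response, which shares Slc7a11 with NRF2. Of 16 tested, 0 were called by the edgeR test, and 0 were higher and 2 lower at an unadjusted p under 0.05, against 3.61% and 7.33% of all genes. The median log2 fold change was −0.16, with 11 of the 16 below 0, against 6785 of all 13495 genes. Atf3 was at 87.4 and 74.0 CPM with IRF2 siRNA, against 135.6 and 122.2 CPM with control siRNA, with a log2 fold change of −0.67 ± 0.13 (SE) and an edgeR adjusted p = 0.0668. DESeq2 called it with an adjusted p = 0.00261, among 307 genes called lower by that test. In the edgeR fit Atf3 was at −0.60 and −0.75 without control replicate 1 and 2. Psat1, an enzyme of serine synthesis, had −0.39 (edgeR adjusted p = 0.441), and Nupr1, a stress-induced nuclear protein, had −0.40 (edgeR adjusted p = 0.516). Without control replicate 2 Nupr1 was at −0.62, and without control replicate 1 it was at −0.14.

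**Figure D3:**
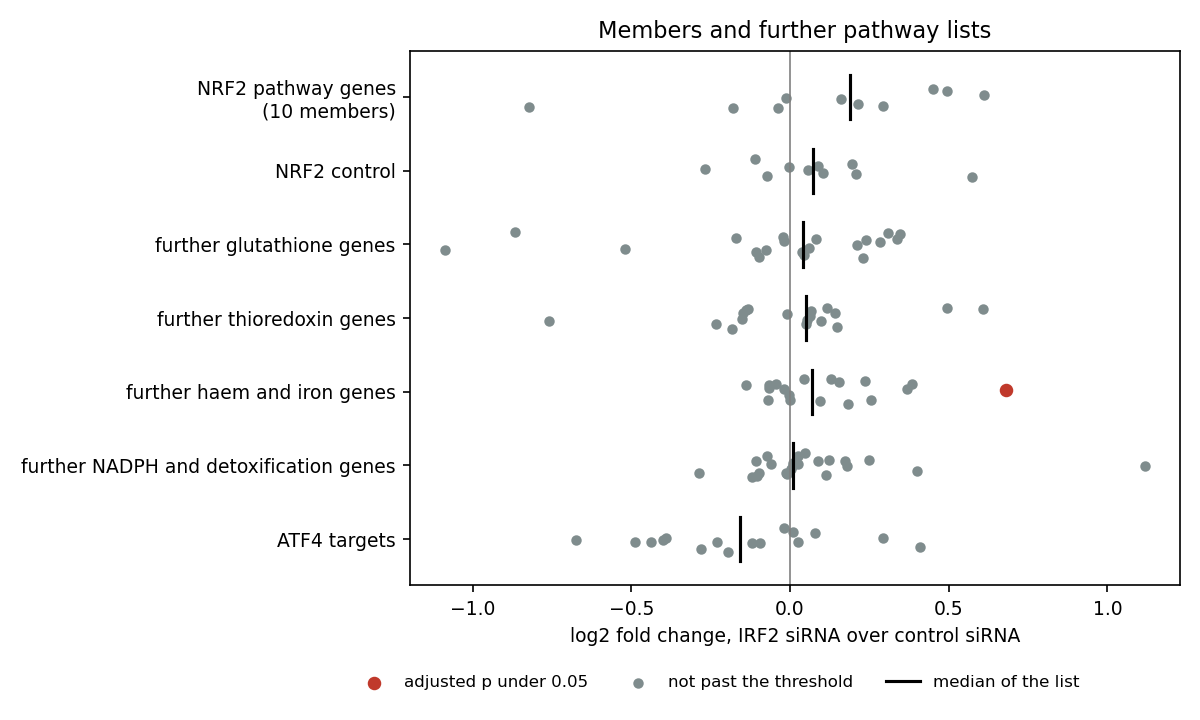
Log2 fold changes, IRF2 siRNA over control siRNA, of the 10 members and of the genes tested in 6 further lists, 1 point a gene, with vertical lines at the medians. The 1 red point is Slc40a1, the gene past an adjusted p of 0.05, and the medians run from −0.16 for the ATF4 list to 0.19 for the members.

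Which members were called depended on the libraries kept. Without IRF2 siRNA replicate 1 or 2 no member was called, with log2 fold changes of 0.63 and 0.60 for Gsr. Hmox1 was at 0.41 and 0.59 in those fits. A fit without a control library takes its spread from the IRF2 siRNA libraries, the closer pair. Without control replicate 1, Gsr, Hmox1, Gclm and Prdx1 were called higher by the edgeR test, against 2.80% of all genes, and without control replicate 2 Gsr and Hmox1 were, against 5.14%. The log2 fold change of Gsr was 0.71 and 0.52 in these fits and that of Hmox1 was 0.60 and 0.40. A fit with the trend of each library with exon length removed, chosen after the data had been seen, called Gsr, at 0.65 with an edgeR adjusted p = 0.0105, and Hmox1, at 0.55 with an edgeR adjusted p = 0.015, against 1.36% of all genes higher. In that fit Gclm had 0.47 with an edgeR adjusted p = 0.0805, and Nfe2l2 had −0.01 with 0.973. Of the further pathway genes it called Slc40a1 and Prdx5 higher and Gpx1, Selenow and Atf3 lower, among 183 genes higher and 358 lower. Across all alternatives Gsr stayed between 0.52 and 0.71, Hmox1 between 0.40 and 0.60 and Gclm between 0.37 and 0.54.

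**Figure D4:**
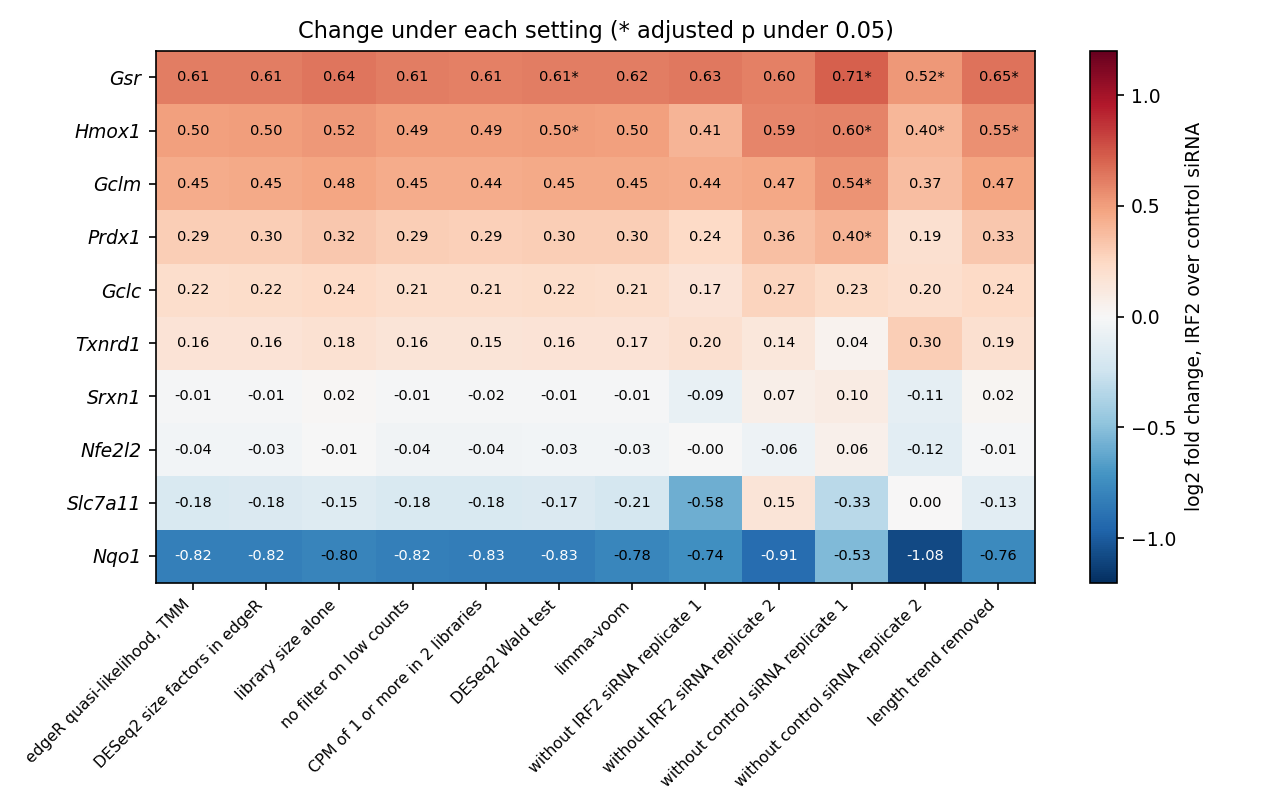
Log2 fold change of each member, IRF2 siRNA over control siRNA, in the edgeR fit and under 11 alternative settings, with a star where the adjusted p was under 0.05; the fit with a replicate block is not drawn. Among the settings drawn, stars stand for Gsr and Hmox1 under DESeq2, without either control replicate and with the length trend removed, and for Gclm and Prdx1 without control replicate 1.

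Markers of other cells were low or came mainly from 1 gene. The erythroid list, relevant to haem, summed to at most 0.33 CPM with IRF2 siRNA and 0.922 CPM with control siRNA over 7 genes. Klf1 was the highest on average. Hba-a1 and Hbb-bs were at 0.28 and 0.31 CPM in control replicate 2 and at 0 with IRF2 siRNA. Hbb-bt was at 0 in every library. All of these but Klf1 were named after their values were seen. The mast cell, megakaryocyte, and neutrophil and granulocyte precursor lists summed to at most 0.147, 2.39 and 13.1 CPM with IRF2 siRNA and 0.276, 2.52 and 11.7 CPM with control siRNA, led by Cpa3, Gp1ba and Ngp. The B cell list summed to 274.2 to 285.7 CPM with IRF2 siRNA and 200.3 to 244.6 CPM with control siRNA. Of these sums Ighm made 270.1 to 281.0 and 196.6 to 239.2 CPM. Cd79b was at 4.53 and 3.71 CPM with IRF2 siRNA, against 5.13 and 3.38 CPM with control siRNA. Pax5 was at 0 in every library, and both Cd79b and Pax5 were named after their values were seen. The dendritic cell list summed to 409.2 to 490.7 and 313.4 to 389.9 CPM, of which all but 1.77 to 2.06 and 1.96 to 2.15 CPM was Bst2, and Flt3 and Zbtb46, also named after their values were seen, were under 1 CPM. T and NK cell markers summed to 21.0 to 22.3 and 25.8 to 31.5 CPM, nearly all Cd4, and stromal markers to 42.6 to 46.9 and 40.7 to 40.8 CPM, led by Pecam1. Mitochondrially encoded mRNAs, led by mt-Co1, were lower with IRF2 siRNA, at 18896 to 19087 CPM against 21260 to 26047 CPM. In that list 6 of 13 genes were under 1 CPM in every library, so the sum describes the rest. The part of the B cell, dendritic cell, T and NK cell, stromal and mitochondrial sums in the values of the members was not tested.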

How the data were processed

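Total RNA of macrophages was sequenced in 4 libraries, and the authors deposited unnormalised gene counts for each library. Per the submitters' processing notes, the authors demultiplexed reads with bcl2fastq 2.18.0.12, aligned them to mm10 with STAR 2.5.2b and counted them with HTSeq 0.6.0; the annotation release and strand setting are among the details not given in the sources used here. Multiply aligned reads, 12.5% to 15.0% of the column totals, ambiguous reads, 4.17% to 4.71%, and reads in no gene, 5.07% to 6.85%, are listed apart from genes and were left out. Symbols, coordinates and exon lengths were taken from GENCODE M21, whose GRCm38 assembly is mm10, and matched 48349 genes.

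Counts were fitted in R 4.3.3 with edgeR 4.0.16: filterByExpr at a minimum count of 10 and total of 15, TMM scaling, glmQLFit with legacy = FALSE and glmQLFTest, with Benjamini-Hochberg adjustment over 13495 genes and calls under 0.05. Each standard error is the size of the log2 fold change over the root of its F value, and intervals use the t distribution of the fit. TPM used the summed exon length of each gene. Alternatives used other scaling, filters, DESeq2 1.42.0, limma 3.58.1 (voom), the replicate number as a block and each library left out; leaving a group with 1 library assumes that it varies as the remaining group does. A loess of each library on exon length was added after seeing the data. The members and lists were chosen with earlier results of these data known. The rule for named genes took all members, Irf2, the called genes of each pathway list, filled up to 3 by lowest p, and the most abundant gene of each marker list; genes named outside it are marked. Some genes under this rule are not reported here. Replicates were no copies: chi-square per degree of freedom was 10.1 for IRF2 siRNA and 50.8 for control siRNA.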

Additional observations from a re-analysis of the deposited data

How the results depend on the processing

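The edgeR fit called 241 genes in all, 0 members and 1 further pathway gene. These counts were 72, 0 and 0 with no filter on low counts, 427, 2 and 5 with DESeq2, and 541, 2 and 5 with the length trend removed, which was chosen after seeing the data. Leaving out 1 library gave 237 to 1770 genes, 0 to 4 members and 0 to 17 further pathway genes. The cause was not tested. With the replicate number as a block the counts were 1521, 4 and 16. Deviations of same-numbered libraries correlated at 0.546, but there are only 2 pairs. No label ties the numbers to a shared culture or day, so whether same-numbered samples share more than a number is not known. No member was called lower under any alternative run. Among the members, signs of the log2 fold change turned only for 3. With 1 library left out, Nfe2l2 ranged from −0.12 to 0.0577, Slc7a11 from −0.58 to 0.15, with 0.0023 without control replicate 2, and Srxn1 from −0.11 to 0.10. Srxn1 was also at 0.016 by library size alone and 0.021 with the length trend removed. Depth limits Nqo1 and Slc7a11, at 19 to 48 reads a library.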

Other observations

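Values of 8 selenoprotein genes of the redox lists, grouped after they were seen, are given side by side. Gpx1, Selenow and Gpx3 had log2 fold changes of −0.87, −0.76 and −0.52, against −0.08 for Gpx4, which repairs lipid peroxides, 0.06 for Msrb1, a methionine sulfoxide reductase, 0.16 for Txnrd1, 0.14 for Txnrd2 and −0.14 for Txnrd3. Gpx4 was at 244.5 and 215.1 CPM with IRF2 siRNA, against 286.1 and 198.2 CPM with control siRNA, so its groups overlapped. None of the 8 passed the edgeR test, and the differences between them were not tested.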
